A study of Mus musculus with 6 samples.

Results

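The receptors of the TGF-β superfamily were followed in bulk RNA-seq of mouse thoracic aorta. The genes were chosen by name, Tgfbr1, Tgfbr2, Tgfbr3, Eng, Acvrl1, Acvr1, Acvr1b, Acvr2a, Bmpr1a and Bmpr2, and each was found by its Ensembl identifier in the table of estimated counts, so that 10 of 52636 genes were examined. The 4 WT libraries came from untreated C57BL/6J mice. The 2 KO libraries came from Tgfbr1/2iSMCKO mice, which carry Tgfbr1f/f, Tgfbr2f/f, Myh11-CreERT2 and mT/mG and were injected i.p. with tamoxifen, 2 mg per day over 5 days, at an age of 11 weeks. Both groups were 12 weeks old when the aortas were taken. The KO mice thus differed from WT in both floxed alleles, the Cre transgene, the mT/mG reporter and the tamoxifen, and the part of each in a difference cannot be told apart. The Cre is driven by the promoter of Myh11, a smooth muscle myosin gene, so the floxed genes are cut in smooth muscle cells, while the endothelial cells, fibroblasts and leukocytes of the whole aorta keep them. The labels do not say whether a library is 1 mouse or a pool, so p-values measure the spread between these libraries only.

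Ligands of this family bind complexes of type I and type II receptors, both of which are serine/threonine kinases that span the membrane. The type II receptor phosphorylates the type I receptor, which then phosphorylates Smad proteins that enter the nucleus. Receptors for TGF-β and activin mainly use Smad2 and Smad3, and receptors for bone morphogenetic proteins (BMPs) mainly use Smad1, Smad5 and Smad9, whereas co-receptors such as betaglycan and endoglin bind ligand without kinase activity. In the vessel wall, Tgfbr1 and Tgfbr2 are best known in smooth muscle cells, and Acvrl1 and Eng in endothelial cells.

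Total estimated counts ran from 21807734 to 25801352 in WT, with 28860598 in KO-1 and 19650983 in KO-2. Each of the 10 receptors had between 432 and 13020 counts in every library. The labelled tissue was checked on 9 smooth muscle genes, all of which were detected. DESeq2's adjusted p-value of 0.05 was passed by 0 of them, against 10.4% of all genes tested. For 9 genes this does not show that the groups are alike. Myh11 lay between 232343 and 301065 normalised counts in WT, against 302515 in KO-1 and 359715 in KO-2, both above every WT library. The groups did not overlap in 6 of the 9 genes, some above and some below WT, against 34.3% of all genes tested. Other tissues were unevenly represented: the summed normalised count of 7 cardiac muscle genes was 22201 in KO-1 against 3115 to 4215 in WT, and that of 7 adipocyte genes was 18067.5 in KO-2 against 899 to 1807 in WT. Mitochondrial transcripts took 11.7% of the counts of KO-2 and 2.62% to 4.44% in the other libraries. The table counts each gene as a whole, including exons that Cre leaves in place, so the counts of Tgfbr1 and Tgfbr2 are no check of the KO label. WT-1 to WT-4, KO-1 and KO-2 name the libraries by their labels, and every direction is that of KO-1 and KO-2 so labelled against WT.

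The type I receptors resemble each other in their kinase domains, which raises the question whether their reads could be mistaken for one another. The same 60 bases of 6 type I receptors, from the part of the coding sequence where the longest shared runs lie, are shown 5′ to 3′ to make this visible. They come from the GENCODE M21 transcripts on GRCm38, and capitals mark the bases that differ from Tgfbr1 at the same place in the alignment.
Tgfbr1: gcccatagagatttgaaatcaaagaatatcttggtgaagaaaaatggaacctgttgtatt
Acvr1c: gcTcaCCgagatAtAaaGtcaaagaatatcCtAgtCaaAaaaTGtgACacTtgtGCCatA
Acvrl1: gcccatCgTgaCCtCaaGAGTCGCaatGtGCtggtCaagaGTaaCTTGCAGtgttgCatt
Acvr1: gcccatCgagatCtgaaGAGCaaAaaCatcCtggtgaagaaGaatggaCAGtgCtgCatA
Bmpr1a: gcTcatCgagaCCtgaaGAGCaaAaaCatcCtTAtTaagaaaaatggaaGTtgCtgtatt
Bmpr1b: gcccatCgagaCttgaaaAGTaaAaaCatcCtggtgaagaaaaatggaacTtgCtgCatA
Even here, between 12 bases (Bmpr1b) and 26 bases (Acvrl1) of the 60 differed from Tgfbr1 in the sequences shown. Over the aligned coding sequence, Acvr1b and Acvr1c matched Tgfbr1 at 66.2% and 64.9% of bases, and the 4 BMP type I receptors at 51.0% to 54.5%. The longest exact run shared by any of the 91 pairs among all 14 type I, type II and co-receptor genes was 20 bases, found in Acvr1 with Bmpr1a and in Acvr1 with Bmpr1b. No window of 50 bases in the longest transcript of a receptor occurred in another receptor. Some windows occurred in neighbouring or unrelated genes, namely 7.04% of those of Acvr2a (in Orc4, on the opposite strand), 4.14% of Tgfbr3, 4.08% of Bmpr1a, 1.35% of Acvr1c and 0.783% of Tgfbr2. Whether the counting used strand is not stated, so the counts of Acvr2a, Bmpr1a, Acvrl1, Eng and Acvr1c, whose exons overlap a gene on the opposite strand, may include reads of that gene.

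No transcript of the 10 receptors passed the test across all genes, whereas Acvr1c, a receptor outside the 10, did and is described below. Of the 10 receptors, 0 passed DESeq2's adjusted p-value of 0.05, a threshold passed by 10.4% of the 17070 genes tested. The unadjusted p-value of 0.05 was passed by 0 of 10 with DESeq2, against 22.2% of all genes tested, and by 1 of 10 (Acvr1b) with edgeR. The adjusted p-value of edgeR was passed by 0 of 10, against 6.18% of the 16114 genes it tested. The estimates were higher in the KO libraries for 7 receptors and lower for 3, with a median log2 fold change of 0.09 against 0.01 for all genes tested. The lowest bound of the 10 intervals (95%) of the ratio was 0.529 (Acvrl1) and the highest was 1.68 (Bmpr2), and the test does not show that the groups are alike. In RNA of whole tissue, fewer cells of a type and less RNA per cell cannot be told apart.

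**Figure D1:**
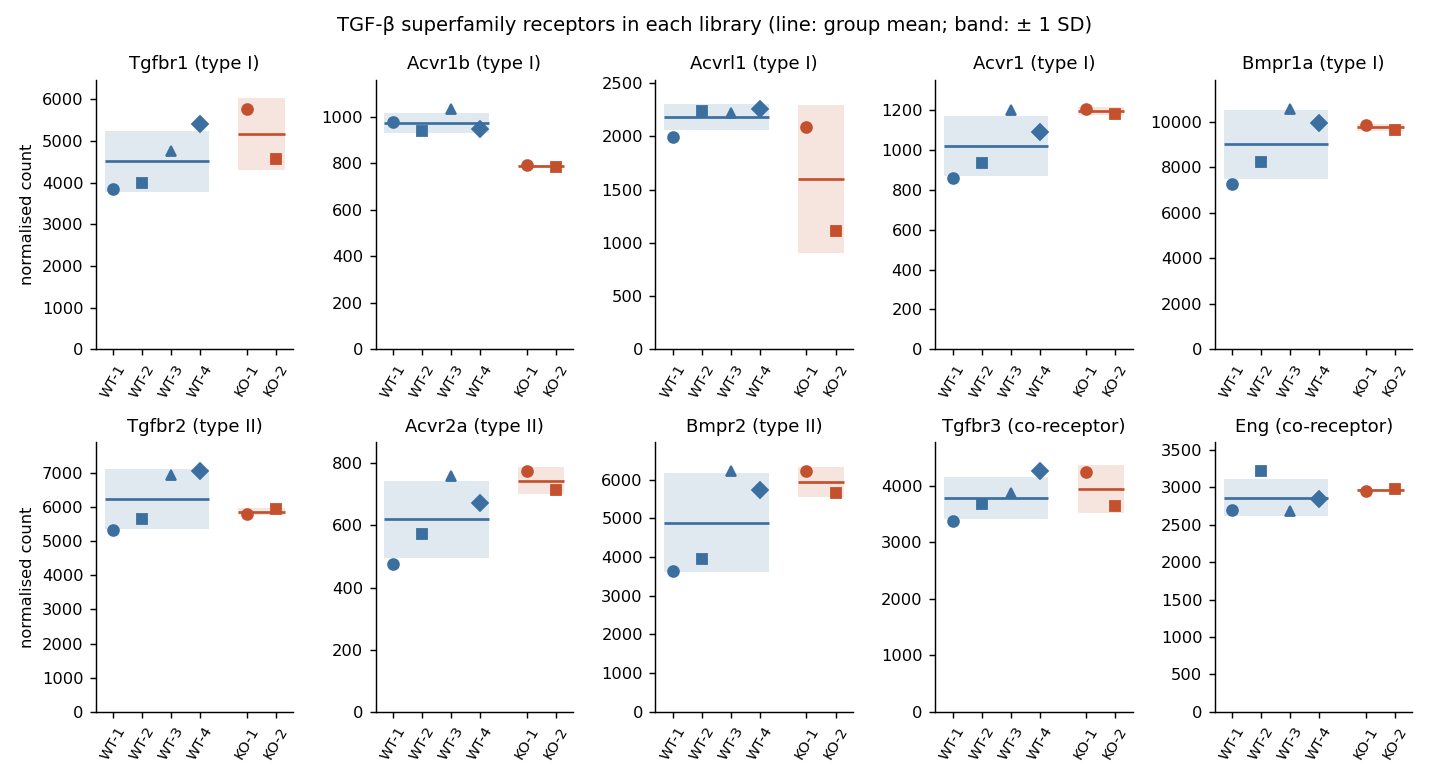
Normalised counts (estimated counts divided by the DESeq2 size factor, axis from 0) of the 10 receptors in the 4 WT libraries (blue) and the 2 KO libraries (red), with the group mean as a line and 1 SD to either side as a band. Acvr1b is the receptor whose groups do not overlap, and the 2 KO libraries stand far apart in Acvrl1.

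The targeted type I receptor, Tgfbr1 (ALK5, chromosome 4, 47353222 to 47414931 of GRCm38), transmits the TGF-β signal to Smad2 and Smad3. Its normalised count was 3858, 3999, 4763 and 5420.2 in WT-1 to WT-4, against 5780.4 in KO-1 and 4568 in KO-2. KO-1 lay above every WT library and KO-2 lay within their range. The ratio of the groups was 1.15 with a 95% interval of 0.872 to 1.51 (DESeq2 adjusted p = 0.63).

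Acvr1b (ALK4, chromosome 15, 101174067 to 101213684), the type I receptor for activins, was the one receptor of the 10 whose groups did not overlap. WT-1 to WT-4 had normalised counts of 976, 939, 1035 and 945, with a CV of 4.48%, the smallest of the 10 receptors. KO-1 and KO-2 had 792 and 785, both below every WT library. Both KO libraries lay below the WT range in 16.4% of all genes tested, and outside it on either side in 34.3%. The log2 fold change of -0.30 (standard error 0.17) did not pass (DESeq2 adjusted p = 0.276). Over the alternative fits the estimate stayed between -0.32 and -0.22. Its adjusted p-value ran from 0.162 (edgeR) to 0.814 (replicate block), the test against a 2-fold change left aside.

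Acvrl1 (ALK1, chromosome 15, 101128522 to 101145336) is a type I receptor of endothelial cells for circulating BMPs. It had 1998, 2242, 2215 and 2261 normalised counts in WT-1 to WT-4. KO-1, with 2092, lay within that range, whereas KO-2 had 1109, below every WT library. The log2 fold change of -0.44 (standard error 0.24) did not pass, with a DESeq2 adjusted p of 0.271. Without KO-1 it was -0.97 with a DESeq2 adjusted p of 1.14e-06, where the single KO library is assumed to vary like the WT libraries, and without KO-2 it was -0.05 with an adjusted p of 0.923. Over the alternatives that kept both KO libraries and tested for any change, the adjusted p ran from 0.234 to 0.615. The low library is also the one with 11.7% mitochondrial counts and with 61684 summed normalised counts of 5 red blood cell genes, against 859 to 5989.6 in WT and 11076 in KO-1. The part of these in the low Acvrl1 value was not tested.

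The BMP type I receptors Acvr1 and Bmpr1a, which signal through Smad1 and Smad5, showed no difference past the test. Acvr1 (ALK2, chromosome 2, 58388644 to 58567157) had 861, 933, 1199 and 1089 normalised counts in WT-1 to WT-4, against 1208 in KO-1 and 1180 in KO-2. KO-1 lay just above the WT range and KO-2 within it, and the ratio was 1.17 with a 95% interval of 0.893 to 1.53 (DESeq2 adjusted p = 0.559). Bmpr1a (ALK3, chromosome 14, 34410734 to 34503341) had 7252, 8234, 10588 and 9962 in WT-1 to WT-4, against 9879 in KO-1 and 9640.3 in KO-2. Both KO values lay within the WT range, with a ratio of 1.08 and a 95% interval of 0.832 to 1.41 (DESeq2 adjusted p = 0.8).

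Among type II receptors, the targeted Tgfbr2 (chromosome 9, 116084293 to 116175360), which binds TGF-β and activates Tgfbr1, had 5327, 5643, 6948 and 7042 normalised counts in WT-1 to WT-4. KO-1 and KO-2 had 5784 and 5937, in the middle of the WT range. The ratio was 0.939 with a 95% interval of 0.734 to 1.2 (DESeq2 adjusted p = 0.838), so a decrease by more than 26.6% lay outside the interval.

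Acvr2a (chromosome 2, 48814109 to 48903269), a type II receptor for activins and several BMPs, had 475, 572, 759 and 673 in WT-1 to WT-4, against 774 in KO-1 and 713 in KO-2. Its ratio was 1.2 with a 95% interval of 0.875 to 1.64 (DESeq2 adjusted p = 0.562). Bmpr2 (chromosome 1, 59763400 to 59879014), the BMP type II receptor known for its mutation in pulmonary arterial hypertension, had 3636, 3962, 6214 and 5726 in WT-1 to WT-4, against 6209.9 in KO-1 and 5654 in KO-2. Both genes were low in WT-1 and WT-2, and their KO values were near those of WT-3 and WT-4, with KO-1 just above every WT library in Acvr2a. The CV of Bmpr2 in WT, 26.1%, was the largest of the 10 receptors, and its ratio was 1.21 with a 95% interval of 0.877 to 1.68 (DESeq2 adjusted p = 0.545).

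The co-receptors had the estimates nearest to 0 of the 10 receptors. Tgfbr3 (betaglycan, chromosome 5, 107106570 to 107289629), which presents TGF-β to its type II receptor, had 3374, 3677, 3869.6 and 4260.1 in WT-1 to WT-4, against 4245 in KO-1 and 3648 in KO-2. Eng (endoglin, chromosome 2, 32646595 to 32682669), which works with Acvrl1 in endothelium, had 2690.0, 3211, 2682 and 2842 in WT-1 to WT-4, against 2953 in KO-1 and 2972 in KO-2. For both genes the KO values lay within the WT range. The ratios were 1.04 for both, with 95% intervals of 0.824 to 1.31 for Tgfbr3 (DESeq2 adjusted p = 0.898) and 0.832 to 1.29 for Eng (DESeq2 adjusted p = 0.9).

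**Figure D2:**
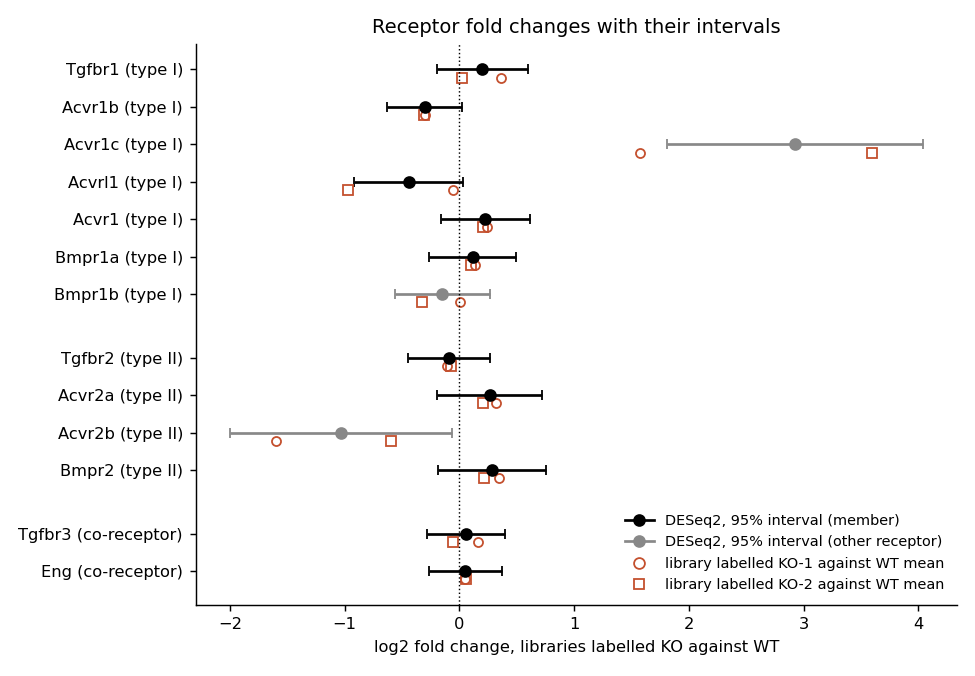
Log2 fold changes of the KO libraries against WT by DESeq2 with 95% intervals (filled, black for the 10 receptors and grey for the remaining receptors of the family), and each KO library against the WT mean (open symbols). The intervals of the 10 receptors all include 0, and the 2 KO libraries are furthest apart in Acvr1c, Acvr2b and Acvrl1.

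The family has 4 further type I and type II receptors. Acvr1c (ALK7), a receptor for activins and related ligands that is best known in adipocytes, had 16.5, 34.1, 24.0 and 17.8 normalised counts in WT-1 to WT-4, against 69.8 in KO-1 and 284 in KO-2. Its log2 fold change was 2.93 (standard error 0.57, DESeq2 adjusted p = 1.46e-05), but 1.60 with an adjusted p of 0.168 without KO-2, and the adjusted p over the alternatives ran from 6.67e-09 to 0.168. All 7 adipocyte genes were detected and 2 of them passed the DESeq2 adjusted p-value, against 10.4% of all genes tested. The summed level of the 7 genes was 899 to 1807 in WT. It was 1555 in KO-1, within the WT range, and 18067.5 in KO-2. The part of adipose tissue in the Acvr1c value was not tested. Acvr2b, a second activin type II receptor, had an estimate of -1.03 on the log2 scale (DESeq2 adjusted p = 0.185) with values between 60.6 and 157 in WT. Bmpr1b had -0.15 (DESeq2 adjusted p = 0.749). Amhr2, the receptor of anti-Müllerian hormone, had at most 8.79 normalised counts in a library, was at 0 in both KO libraries and received no adjusted p-value.

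Levels were compared between genes as normalised counts per kilobase of exon, by their mean in WT (SD, n = 4). Bmpr1a was highest at 1419 ± 242, above every other receptor in every WT library. Tgfbr2 (762 ± 108), Eng (706 ± 61.2) and Tgfbr1 (690.2 ± 111) followed and overlapped in range. Tgfbr2 was above Tgfbr1 in every WT library. With the longest transcript as the length, the WT mean of Tgfbr2 was below those of Eng and Tgfbr1, so their order is not resolved. Tgfbr3 (580 ± 56.7) and Acvrl1 (511 ± 28.6) came next, and Tgfbr3 was above Acvrl1 in 4 of 4 WT libraries although their ranges overlapped. A lower tier held Bmpr2 (272 ± 71.0), Bmpr1b (226 ± 35.5), Acvr1b (220.4 ± 9.88) and Acvr1 (211 ± 31.6), again with overlapping ranges. Among these, Bmpr2 was above Bmpr1b in 4 of 4 WT libraries. Acvr2a stood below these at 109 ± 21.7 and Acvr2b at 26.1 ± 11.4, each apart from its neighbours. Acvr1c (2.48 ± 0.867) and Amhr2 (1.43 ± 2.07) were near 0. With the longest transcript in place of all exons as the length, 8 of the 14 receptors held the same place.

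**Figure D3:**
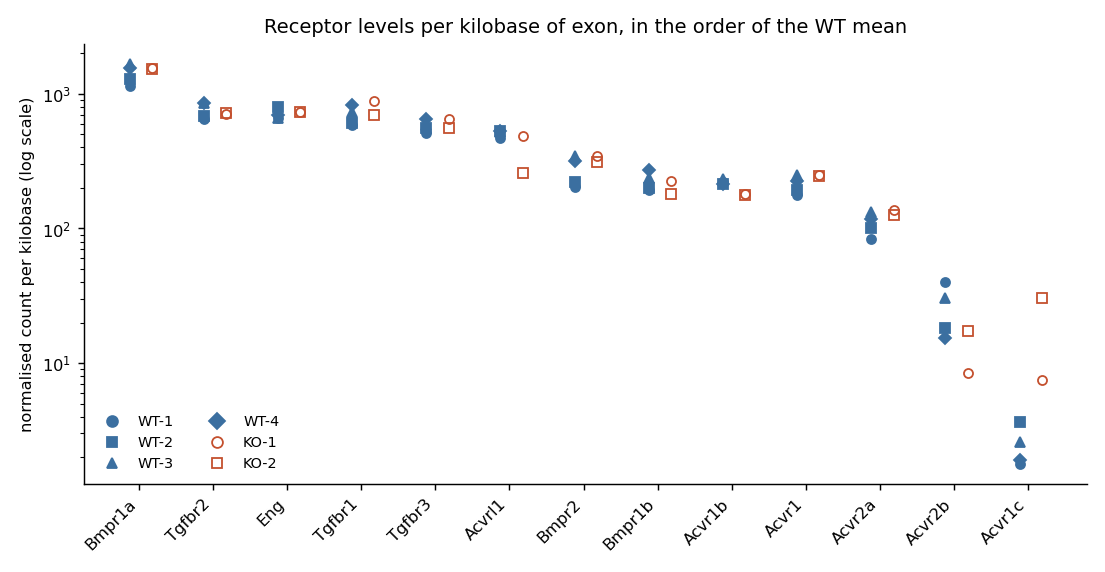
Normalised counts per kilobase of exon (log axis) of the receptors in each WT library (filled) and each KO library (open), ordered by the WT mean, with Amhr2 left out because it holds zeros. Bmpr1a is above every other receptor in all 4 WT libraries.

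The balance within each receptor type was described by each gene's share of the summed per-kilobase levels of that type. The smallest two-sided p an exact permutation test can give for 4 against 2 libraries is 0.133, from 15 arrangements, so no share could pass 0.05. Among type II receptors, Tgfbr2 took 65.3% ± 1.98 (SD, n = 4) in WT, against 60.2% ± 1.62 (SD, n = 2) in the KO libraries. Bmpr2 took 22.9% ± 2.3 and 27.7% ± 1.6 in the same groups, and Acvr2a 9.28% ± 0.632 and 11.0% ± 0.545. For each of these 3 receptors the groups did not overlap, and the exact permutation p was 0.133, the smallest possible. The shares within a type sum to a whole, so these differences are not independent of each other. Among type I receptors, Bmpr1a took 43.1% ± 2.06 and 46.0% ± 3.92, Tgfbr1 21.01% ± 1.28 and 23.5% ± 1.51, and Acvrl1 15.7% ± 1.52 and 11.0% ± 3.74 in WT and in the KO libraries. The groups did not overlap in 5 of the 7 type I receptors either (Acvr1b, Acvr1c, Acvrl1, Acvr1 and Bmpr1b), each with an exact permutation p of 0.133. For the levels of single genes, the groups did not overlap in 34.3% of all genes tested. No such rate was computed for shares, so these counts do not show a change in the balance.

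Eng and Acvrl1 were also set against endothelial genes. Of 12 endothelial markers, 4 passed the DESeq2 adjusted p-value and were higher in the KO libraries (5.71% of all genes tested) and 0 were lower. The 4 were Cdh5, the cadherin of endothelial junctions (log2 fold change 1.47, DESeq2 adjusted p = 3.74e-05), and the receptor kinase Tie1 (0.54, DESeq2 adjusted p = 0.0471), with Kdr and Vwf the other two (3.18 and 1.25). Pecam1 had 0.48 with a DESeq2 adjusted p of 0.245. Estimates below 0 were found for Erg (-0.57), Egfl7 (-0.48) and Esam (-0.08), with DESeq2 adjusted p of 0.0719, 0.131 and 0.857, and both KO libraries lay below every WT library in Erg and Egfl7. The summed level of the 12 markers was 15738 to 26253 normalised counts in WT and 35036 and 34287.5 in the KO libraries. Pecam1 and Vwf weighed most in this sum, with means of 9639 and 4135 in WT and 13490 and 9829 in the KO libraries. Relative to this sum, Eng differed by -0.63 and Acvrl1 by -1.20 on the log2 scale (KO minus WT), with both KO libraries below every WT library for both genes (exact permutation p = 0.133 each, the smallest possible). For Eng the numerator was close between groups and the difference came with the sum of the markers. For Acvrl1 the difference was -0.76 without KO-2 and -1.64 without KO-1.

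The receptors varied among the WT libraries in a shared manner. Of the 10, 8 had their lowest WT value in WT-1, and 7 were lower in both WT-1 and WT-2 than in both WT-3 and WT-4. The labels do not give this arrangement of the WT libraries, so the count of 7 only describes these values. That arrangement held for 24.5% of all genes tested and its opposite for 25.8%. It held for 43.2% of the 1550 genes whose longest transcript has 39 to 42% G and C bases (GC content) and for 7.67% of the 1772 genes with 56 to 59%. The receptors range over the same span of GC content, from 39.9% for Acvr2a to 57.4% for Eng. A stretch of 120 coding bases is given for the receptor of lowest GC content and for the pair of highest GC content, with G and C in capitals, each chosen because its GC content is nearest to that of the whole coding sequence.
Acvr2a: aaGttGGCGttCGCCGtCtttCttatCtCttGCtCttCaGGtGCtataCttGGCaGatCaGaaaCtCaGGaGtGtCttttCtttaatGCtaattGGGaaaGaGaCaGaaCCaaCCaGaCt
Acvrl1: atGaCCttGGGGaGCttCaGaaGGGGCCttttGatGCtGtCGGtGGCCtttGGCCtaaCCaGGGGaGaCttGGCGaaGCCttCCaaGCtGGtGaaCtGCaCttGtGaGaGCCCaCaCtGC
Eng: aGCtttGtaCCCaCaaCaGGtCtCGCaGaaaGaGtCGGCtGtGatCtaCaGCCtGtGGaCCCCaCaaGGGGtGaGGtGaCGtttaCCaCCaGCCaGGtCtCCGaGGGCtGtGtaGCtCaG
The stretch holds 43.3% G and C in Acvr2a and 57.5% in each of Acvrl1 and Eng. The 4 receptors with the lowest GC content, Acvr2a, Tgfbr1, Bmpr2 and Bmpr1a, all had estimates above 0, and Acvr1b and Acvrl1, with 53.5% and 56.6%, had the lowest estimates. Eng, with the highest GC content, did not follow this order, with an estimate of 0.05, and Acvr1, with 48.7%, had 0.23, above Tgfbr1 and Bmpr1a. Across the 10 receptors, fold change and GC content had a Pearson r of -0.75 and a Spearman rho of -0.81, a description over 10 genes that share the same 6 libraries. Over 17040 genes tested the values were -0.10 and -0.21. The median log2 fold change was 0.16 in genes of 39 to 42% GC and -0.19 in genes of 56 to 59% GC.

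With the GC trend of each library taken out, the Pearson r across the 10 receptors was -0.24 and the Spearman rho was -0.22. Estimates then ran from -0.27 for Acvrl1 to 0.26 for Eng, Bmpr1a moved from 0.12 to -0.052, and again 0 of 10 passed. Among low-GC genes, the median level relative to the WT mean was -0.08 and -0.09 (log2) in WT-1 and WT-2, 0.11 and 0.08 in WT-3 and WT-4, and 0.20 and 0.17 in KO-1 and KO-2. The part of GC content in the receptor values beyond this correction was not tested.

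**Figure D4:**
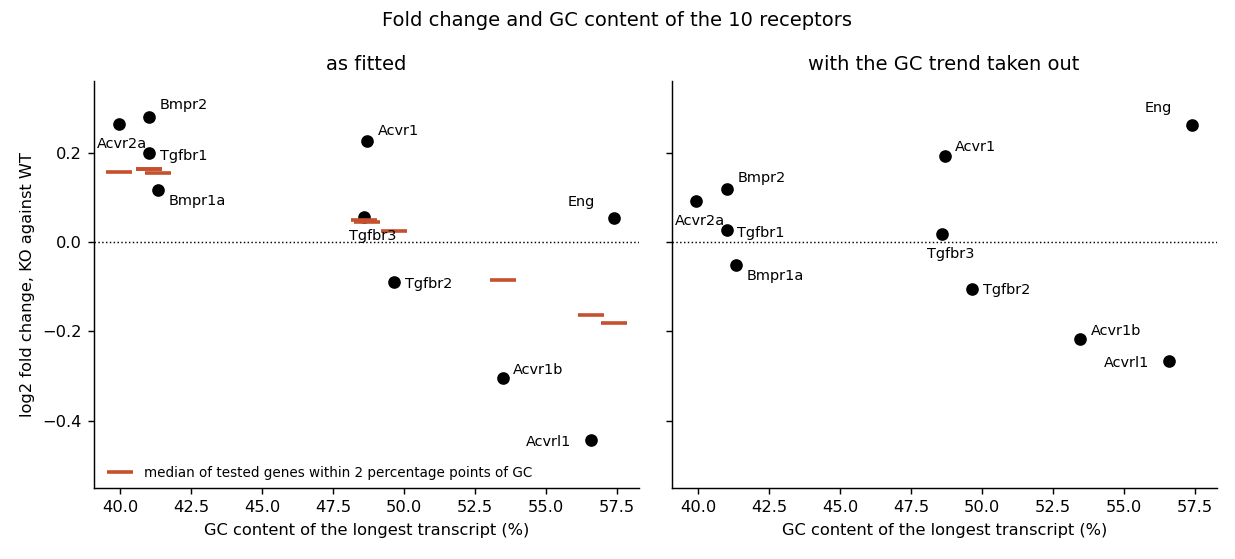
Log2 fold change of each of the 10 receptors against the GC content of its longest transcript (%), as fitted (left, with the median of genes of like GC content as red dashes) and with the GC trend of each library taken out (right). The estimates fall from left to right as fitted (r = -0.75) and less so after the correction (r = -0.24).

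Around the receptors, 83 other genes of the pathway were listed, the 4 remaining receptors among them, of which 77 were tested and 21 passed the DESeq2 adjusted p-value, 13 higher and 8 lower in the KO libraries. The background for either direction was the 10.4% given above, with 5.71% higher and 4.69% lower. All gene lists were chosen with earlier results of these data known. The count of 21 therefore cannot show whether the pathway changed more often than this background. Their median log2 fold change was 0.09, against 0.01 for all genes tested. With edgeR 13 of the 21 and no others passed, and Bambi, Bmper, Cd109, Chrdl1, Dab2, Fkbp1a, Fst and Smad9 did not. Without KO-2, 13 of the 21 passed, and Acvr1c, Bambi, Bmper, Cd109, Dab2, Gdf11, Nrp2 and Smad9 did not. Without KO-1, 16 of the 21 passed, and Bmper, Chrdl1, Fkbp1a, Fst and Usp11 did not.

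Of 9 transcripts known to respond to TGF-β, 4 were lower and 0 higher. Pmepa1, which encodes an inhibitor of Smad activation, had 15003 to 19298 normalised counts in WT, against 5764 in KO-1 and 6888 in KO-2, both below every WT library. Its log2 fold change was -1.45 (standard error 0.18, DESeq2 adjusted p = 5.76e-14). The NADPH oxidase Nox4 changed by -1.42 and the matricellular gene Ccn2 by -1.28 on the log2 scale (DESeq2 adjusted p of 1.77e-09 and 7.44e-06). The feedback inhibitor Smad7 was among the 5 that did not pass, with -0.13 (DESeq2 adjusted p = 0.756). Of 7 BMP-responsive transcripts, 0 passed, and Id1 had 0.01 with a DESeq2 adjusted p of 0.99.

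Of 8 Smad genes, 1 passed, which is near the 10.4% of all genes tested. Smad9, a BMP Smad, was higher by 0.70 on the log2 scale (DESeq2 adjusted p = 0.0194) and did not pass with edgeR (adjusted p = 0.0735). Of 14 ligands tested, 3 were higher and 0 lower, namely Inhbb, a subunit of activin B (log2 fold change 1.44), Gdf6 (1.76) and Gdf11 (1.32). The TGF-β ligands Tgfb1, Tgfb2 and Tgfb3 did not pass, with -0.21, 0.17 and 0.31 (DESeq2 adjusted p of 0.691, 0.686 and 0.31). Of 10 ligand traps, 4 were higher and 1 lower. Fstl3, which binds activin, changed by -1.08 on the log2 scale (DESeq2 adjusted p = 2.86e-07), and the BMP antagonist Chrdl1 and the activin antagonist Fst were higher by 0.87 and 0.80.

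Of 10 further co-receptors and decoys tested, 1 was higher and 3 lower. Nrp2, a neuropilin, was higher by 1.11, and Bambi, a decoy without a kinase domain, Cd109, a TGF-β co-receptor, and Bcam were lower, with log2 fold changes of -0.64, -0.71 and -0.79. Bcam is a laminin receptor and not known for binding TGF-β. Among 18 genes that act on the receptors, 3 were higher and 0 lower, the endocytic adaptor Dab2 (0.99), the type I receptor inhibitor Fkbp1a (0.91) and the deubiquitinase Usp11 (0.71). Macrophage genes moved with these groups, since 9 of 9 were higher, with summed levels of 7444 to 8699.9 in WT and 13886.5 and 15809.5 in KO-1 and KO-2, and Dab2 is also expressed by macrophages. Markers of other cells were higher as well beside the ligands, traps and co-receptors, with 5 of 6 mesothelial genes past the test (summed level 207 to 425 in WT, 875 in KO-1 and 2265 in KO-2) and 3 of 8 fibroblast genes (118166 to 129492 in WT, 149559 in KO-1 and 172431 in KO-2). Col1a1 was the largest part of the fibroblast sum and did not pass (DESeq2 adjusted p = 0.274). It had 65840 to 83495 normalised counts in WT, 81715.5 in KO-1 and 109539 in KO-2. The part of macrophages, mesothelial cells and fibroblasts in the changes of the pathway genes was not tested.

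**Figure D5:**
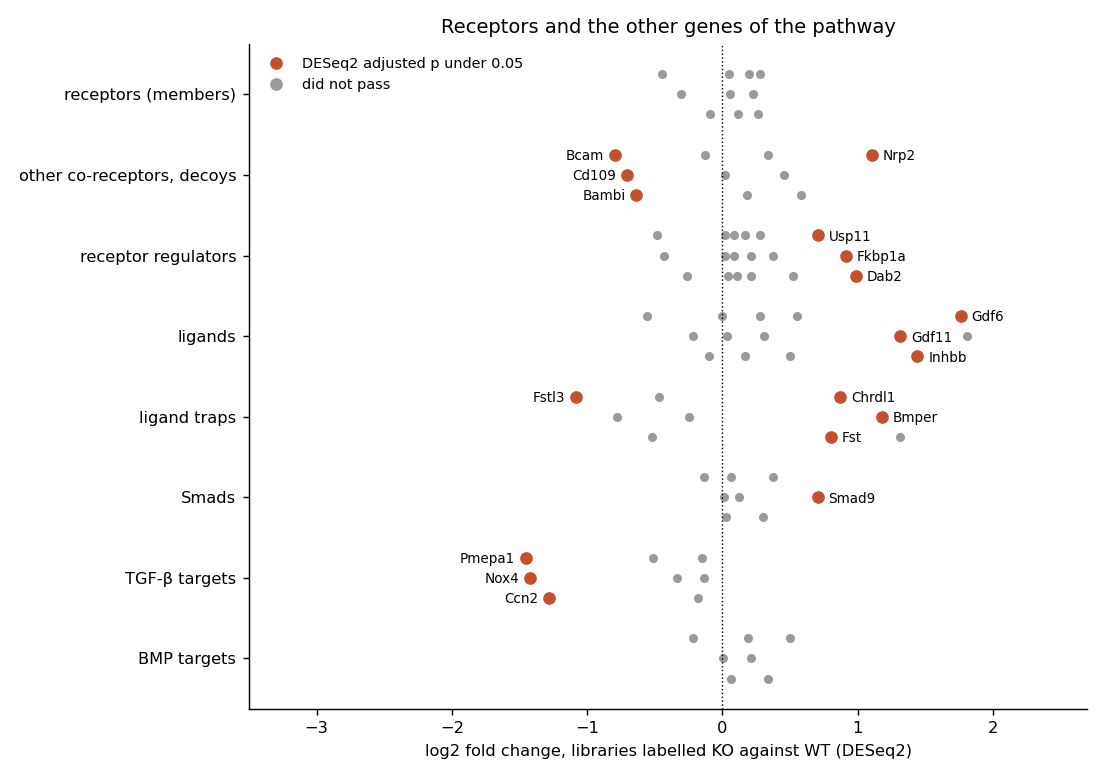
Log2 fold change (DESeq2) of the 10 receptors and of tested genes of 7 further lists of the pathway that are reported here, with genes past the adjusted p-value of 0.05 in red and named. None of the 10 receptors is red, the red TGF-β targets all lie below 0, and 3 of the 14 ligands are red and lie above 0. The remaining type I and type II receptors are not drawn, among them Acvr1c, which passed.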

How the data were processed

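RNA of thoracic aorta was sequenced in 6 libraries. Per the study's methods, the authors trimmed reads with Trim Galore, mapped them with HISAT2 to GRCm38 (mm10) and ran StringTie with the GENCODE M15 annotation. What they deposited are estimated counts for each gene, without scaling for depth and already whole. How they were rounded, the read length assumed and whether strand was used are not stated. The columns carry codes, and their match to the libraries was inferred from those codes: 4 numbered columns of 1 code were taken as WT and 2 of the other as KO, and 0 columns were left unused. The 10 receptors and all gene lists were chosen with earlier results of these data known.

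DESeq2 1.42.0 in R 4.3.3 compared the groups on the whole table (Wald test on group alone with the default size factors and filtering, Benjamini-Hochberg adjusted p-value of 0.05). The study also used DESeq2 with this threshold, and added a fold change cutoff of 2, which was not applied here. Its design formula is not given in the sources used here. Single-library fold changes used a pseudocount of 0.5. Alternatives were edgeR 4.0.16 (quasi-likelihood, with and without a filter), a mean normalised count of at least 10, TMM scaling, total counts, no mitochondrial genes, a test against a 2-fold change, a GC trend taken out (lowess span 0.3), a replicate block and each library left out. Methods were tested on simulated data. Positions, exon lengths and sequences came from GENCODE M21 on GRCm38, and coding sequences of the type I receptors were aligned with MAFFT 7.526. Shares and ratios were compared by exact permutation tests, two-sided (SciPy 1.17.1).

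All 10 receptors and the 4 remaining type I and II receptors are named. From each other pathway list, the genes that passed are named, at most 4 by ascending adjusted p-value, and Pecam1, Cdh5 and Tie1 from the endothelial list. Myh11, Kdr, Vwf, Erg, Egfl7, Esam, Smad7, Id1, Tgfb1, Tgfb2, Tgfb3, Bmper and Col1a1 were named after their values were seen. Some items these rules select are not reported here. Intervals of fold changes are 95% Wald intervals.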

Additional observations from a re-analysis of the deposited data

How the results depend on the processing

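Fold changes of the 10 receptors and Acvr1c were refitted under 15 alternatives. Of the 10 receptors, 0 passed the adjusted p-value in 14 of them and 1 (Acvrl1) passed without KO-1, so the count without a library ran from 0 to 1. Leaving out a library moved the log2 fold change of Tgfbr3, 0.06, to between -0.055 (without KO-1) and 0.17 (without KO-2), and that of Tgfbr1, 0.20, to between 0.02 and 0.37 (same libraries). With the GC trend taken out, Bmpr1a had -0.052. Acvr1c lost its call against a 2-fold change (2.93, DESeq2 adjusted p = 0.111) and without KO-2 (1.60). The count of the other pathway genes past the adjusted p-value was 21. It was 13 with edgeR, 12 with edgeR without a filter and 2 in a test against a 2-fold change, and 15 to 22 with a library left out. In the order of levels per kilobase, 8 of 14 receptors held their place with the longest transcript as the length, and 10 to 14 did so with a WT library left out. Why these values moved was not tested.

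Whether the replicate numbers pair the samples could not be decided. The deviations from the group means had a correlation of -0.09 for WT-1 with KO-1 and of 0.01 for WT-2 with KO-2, over 15511 genes. With 2 KO libraries, the deviations of KO-1 and KO-2 are mirror images, so both values rest on the same KO difference. The replicate number was also fitted as a block, which leaves few residual degrees of freedom. WT-3 and WT-4 have no KO library of the same number. The group estimate of this fit therefore rests on WT-1 and WT-2 against KO-1 and KO-2. With the block, 11 pathway genes passed and the log2 fold change of Tgfbr2 was 0.10. The block changed no other direction among the 10 receptors.

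With 2 KO libraries the receptors' intervals are wide, and Amhr2, Acvr1c and Acvr2b are further limited by low counts. In the 28 sets of WT values checked for a library far from the others, 0 were found, against 1.4 expected by chance.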
